A study of Mus musculus with 8 samples.

Results

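The transcription factor genes of the pancreatic islet examined here are Pdx1, Neurog3, Neurod1, Nkx2-2, Nkx6-1, Pax4, Mafa, Isl1 and Mnx1, which are 9 of the 26048 mouse genes placed on the mm9 genome. The rule that names them rests on their known role in islet development and uses no measured value, although it was set with earlier results of these data known, and what was counted is the number of H3K4me3 ChIP-Seq tags within 1 kb on either side of each transcription start. The cells were wt mESCs of the line TC-1, menin-null mESCs of the line 3.2N, in which Men1 is knocked out, and the PILECs (pancreatic islet-like endocrine cells) that were differentiated from each of the lines in culture, all on the 129S6/SvEvTac background. The mESCs had been kept on irradiated MEF feeders in medium with LIF and then freed of feeders, and the PILECs were made through embryoid bodies and no sorting is given in the methods, so they are a mixed culture in principle. Each genotype is represented by 1 line, and each of the 4 kinds of cell by 1 H3K4me3 library and 1 input library, 8 libraries in all, so a difference between libraries has no replicate check and no p-value is given. The H3K4me3 libraries held 2432377 to 18773635 tags and the inputs 3744616 to 19016697, with both mESC libraries at the low end.

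Trimethylation of histone H3 at lysine 4 marks the starts of genes, mostly those rich in CG dinucleotides, and is laid down by MLL and SET1 complexes. Menin, the product of Men1, is a subunit of the complexes that contain MLL1 or MLL2. The islet factors act in a sequence in the embryo. Pdx1 and Nkx6-1 specify pancreas progenitors, Neurog3 commits a progenitor to the endocrine fate, and Neurod1, Nkx2-2 and Pax4 act after Neurog3 as the islet cell types form. Mafa drives insulin transcription in mature beta cells, while Isl1 and Mnx1 serve both islet cells and motor neurons.

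The labels were checked before the members were read. A stretch of 2500 bases inside Men1, at chr19:6336479-6338978, held 0 tags in the 4 menin-null libraries together, against 18 tags in the input of wt mESCs, 26 in the input of wt PILECs and 43 in the H3K4me3 library of wt PILECs. The H3K4me3 library of wt mESCs also held 0 tags there, so the stretch, which was picked after its values were seen, checks nothing for the H3K4me3 libraries of mESCs. The markers of the cell types were mixed. Of 10 genes of pluripotent cells, 10 carried the mark in both mESC libraries, and 5 and 4 in the wt and menin-null PILEC libraries, where their summed level was 70.8 and 72.1 RPM (tags per 1000000 tags of the library) against 397 and 517 RPM in mESCs. Of 16 hormone and secretory genes of the islet, 7 carried the mark in either PILEC library, among them Chga, Chgb and Pcsk2, which neurons share. The hormone genes Ins1, Ins2, Gcg, Sst, Ppy and Iapp did not pass in either PILEC library, where the highest of them was Sst at 1.28 RPM in wt PILECs and Ins2 at 1.24 RPM in menin-null PILECs. By RT-PCR the authors found transcripts of Ins1, Ins2, Gcg and Iapp, at low to moderate level, in PILECs of both genotypes. They also found C-peptide staining and more NeuroD1 protein than in mESCs. RNA and protein are other measures than the mark. All 10 neural genes placed were marked in both PILEC libraries, with a summed level of 205 and 192 RPM against 129 and 173 RPM in mESCs, and of 9 genes of motor neurons and the ventral spinal cord 6 and 5 were. Fibroblast genes were marked in 8 and 7 of 10 cases, genes of definitive endoderm and liver in 3 of 10 and muscle genes in 1 of 8. In the wt and menin-null mESC libraries the mark was present at 6 and 7 of the 16 islet genes, 7 and 6 of the 9 motor neuron genes, 8 and 9 of the 10 neural genes, 5 and 5 of the fibroblast genes, 5 and 4 of the endoderm and liver genes and 3 and 3 of the muscle genes. Of all genes, 56.5% and 56.8% were marked in these libraries by the rule used for the members, and 55.1% and 54.4% in PILECs. The part that neural or other cells had in the values of PILECs at the members was not tested.

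The sequence at the starts is shown because the CG count of a start orders the level of the mark over all genes, and because the members differ widely in it. The 300 bases from 250 before the start, read 5′ to 3′ on the strand of the gene from mm9, are given for 4 members, with each CG in capitals. A CG reads the same on both strands, 95.33% of the same windows of all 26048 genes hold at least 1, and their median is 12. Mnx1 (chr5:29804961-29805260, minus strand) held 26, Isl1 (chr13:117099847-117100146, minus strand) 37, Neurod1 (chr2:79296684-79296983, minus strand) 24 and Pdx1 (chr5:148081285-148081584, plus strand) 7.
Mnx1: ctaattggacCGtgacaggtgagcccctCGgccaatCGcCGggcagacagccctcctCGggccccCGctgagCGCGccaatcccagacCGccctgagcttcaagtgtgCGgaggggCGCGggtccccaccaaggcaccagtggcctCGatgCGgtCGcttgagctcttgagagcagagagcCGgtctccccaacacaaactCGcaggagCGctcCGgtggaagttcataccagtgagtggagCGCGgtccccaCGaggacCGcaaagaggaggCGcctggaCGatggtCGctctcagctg
Isl1: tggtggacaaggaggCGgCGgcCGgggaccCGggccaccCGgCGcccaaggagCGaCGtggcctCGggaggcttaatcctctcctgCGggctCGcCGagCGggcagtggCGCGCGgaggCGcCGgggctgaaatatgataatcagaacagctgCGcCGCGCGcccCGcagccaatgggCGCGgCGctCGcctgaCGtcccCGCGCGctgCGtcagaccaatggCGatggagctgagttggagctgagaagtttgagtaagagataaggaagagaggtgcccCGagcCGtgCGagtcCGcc
Neurod1: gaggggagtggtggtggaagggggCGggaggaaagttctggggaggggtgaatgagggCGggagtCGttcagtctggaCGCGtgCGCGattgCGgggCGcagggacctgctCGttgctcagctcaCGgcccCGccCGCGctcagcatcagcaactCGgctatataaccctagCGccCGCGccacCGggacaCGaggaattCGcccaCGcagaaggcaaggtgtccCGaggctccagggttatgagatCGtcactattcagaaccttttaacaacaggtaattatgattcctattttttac
Pdx1: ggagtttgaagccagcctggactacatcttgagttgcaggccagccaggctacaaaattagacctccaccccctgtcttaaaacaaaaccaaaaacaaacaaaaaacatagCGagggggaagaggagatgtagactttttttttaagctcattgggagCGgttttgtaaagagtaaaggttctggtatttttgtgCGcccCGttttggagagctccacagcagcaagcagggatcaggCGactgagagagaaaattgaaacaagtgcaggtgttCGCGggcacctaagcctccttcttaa

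Of the 9 members, 7 had an entry in the table of RefSeq promoters. The RefSeq start was the one used here for Neurog3, Isl1 and Mnx1, lay 60 bases upstream for Neurod1, 138 and 515 bases downstream for Pdx1 and Nkx6-1, and lay 7841 bases downstream for Nkx2-2. In Nkx2-2 the start with the most tags, at position 147019979 of chromosome 2, belongs to a noncoding transcript, and the start of the coding transcript at position 147012138 held 2 and 12 tags in wt and menin-null mESCs and 43 and 60 in wt and menin-null PILECs. The single annotated transcript of Mafa is 1 exon of 1080 bases, nearly all coding, so its start may lie apart from the true one.

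From 6 to 8 of the 9 islet factors carried the mark in a library, beside 54.4% to 56.8% of all genes. A gene is called marked where the lower end of the exact 95% Poisson interval of its level exceeds 2 times the input of the same cells within 50 kb. By this rule 8 of the 9 members were marked in wt mESCs, where 56.5% of all genes were, 6 in menin-null mESCs (56.8% of all genes), and in PILECs 6 in wt (55.1%) and 7 in menin-null cells (54.4%). The median level of the 9 members was 7.81 RPM in wt and 10.2 in menin-null mESCs, and 6.02 in wt and 5.71 in menin-null PILECs. The median of all genes in the same libraries was 9.46, 9.38, 7.19 and 6.11 RPM. Among the marked genes alone it was 29.6, 34.4, 31.9 and 29.5 RPM, and Mafa in menin-null mESCs was the 1 value of a member above it. All windows have the same length, but the local input differed between members, so an order in RPM need not hold over input. In wt mESCs Mafa was at 11.3 times its local input and Isl1 at 26.7 times, although Mafa was higher in RPM. In wt PILECs Isl1 was at 10.06 times and Mnx1 at 9.66 times. The intervals below are exact 95% intervals that cover counting error only, except in the following settings. Where the input within 50 kb was divided out or subtracted, the interval was moved with its ratio and leaves out the error of the input. Tags are not independent molecules where a position repeats, as it did for 11.3%, 4.15%, 11.4% and 11.4% of the tags of the 4 H3K4me3 libraries in the same order.

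**Figure D1:**
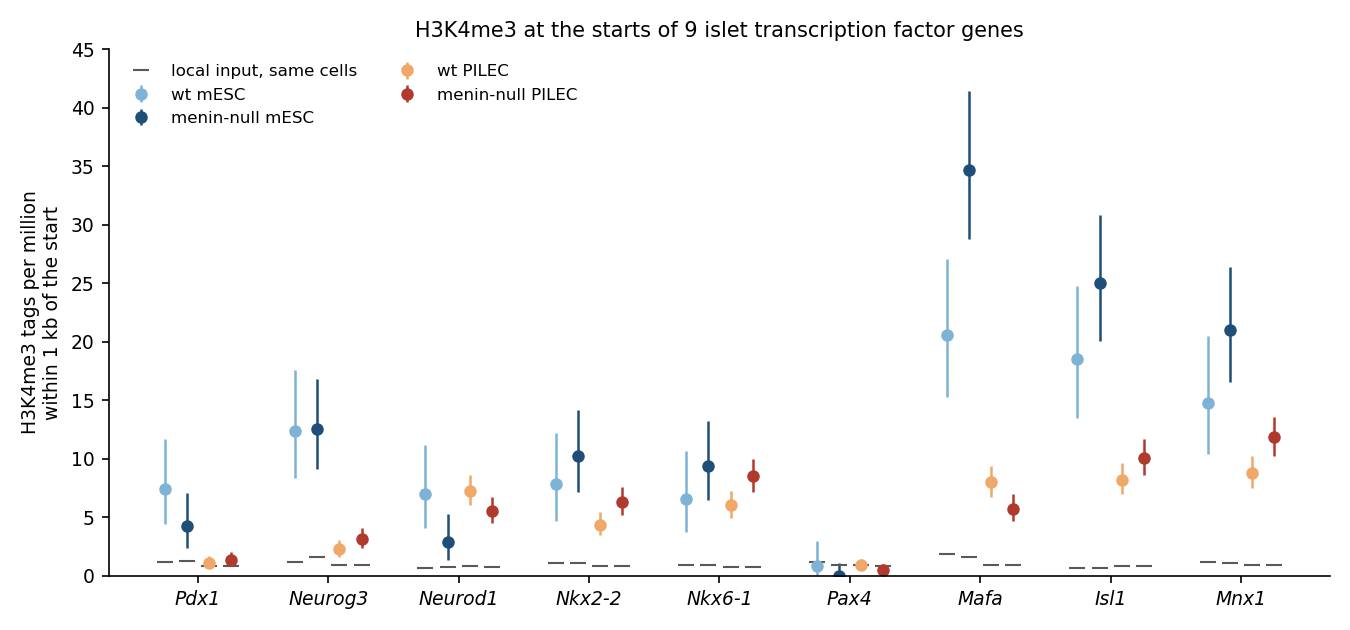
H3K4me3 level within 1 kb of the start of each member, in RPM, with exact 95% Poisson intervals as vertical lines, in the 4 H3K4me3 libraries; short grey bars are the input of the same cells within 50 kb, scaled to the same length. Mafa, Isl1 and Mnx1 are the 3 highest members in both mESC libraries, Mnx1 and Isl1 lead in both PILEC libraries, and Pax4 lies at the input in every library.

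Among the progenitor factors, Pdx1, which starts at position 148081535 of chromosome 5 on the plus strand and has 2 exons, was marked in wt mESCs and in no other library. Its window held 18 tags in wt mESCs (7.40 RPM, 4.39 to 11.7) and 15 in menin-null ones (4.27 RPM, 2.39 to 7.03), and the counts in PILECs were 20 in wt (1.07 RPM, 0.651 to 1.65) and 24 in menin-null cells (1.36 RPM, 0.870 to 2.02). Both PILEC libraries were thus below both mESC libraries, at 1.32 and 1.65 times the local input. In mESCs Pdx1 was at 6.21 times the local input in wt and 3.46 times in menin-null cells. The lower bound in menin-null mESCs, 2.39 RPM, fell just short of 2 times the local input of 1.23 RPM. The start of the antisense gene 2210019I11Rik lies 1036 bases past that of Pdx1, and 19, 15, 19 and 23 tags fell within 1 kb of it in the order wt mESC, menin-null mESC, wt PILEC, menin-null PILEC, so tags between the starts cannot be given to either gene. All 18 tags of wt mESCs lay downstream of the start, and the fullest 200 bases were 200 to 400 bases past the start, in coding sequence. Nkx6-1 (chr5:102094245, minus strand, 3 exons) was marked in all 4 libraries, with 16, 33, 113 and 150 tags and levels of 6.58, 9.38, 6.02 and 8.48 RPM, in the order wt mESC, menin-null mESC, wt PILEC, menin-null PILEC. Its 4 levels thus ran from 6.02 to 9.38 RPM, with menin-null above wt in both kinds of cell.

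The endocrine factors ranged from Nkx2-2, marked in every library, to Pax4, marked in none. Neurog3 (chr10:61595838, plus strand, 2 exons) had 30 tags in wt (12.3 RPM) and 44 in menin-null mESCs (12.5 RPM), but in PILECs 42 in wt (2.24 RPM) and 56 in menin-null cells (3.17 RPM). It was marked in all but wt PILECs, where its level was 2.41 times the local input. The antisense gene 2010107G23Rik starts 1616 bases past it, with 21, 19, 20 and 36 tags within 1 kb of that start, a window that overlaps the window of Neurog3. Its target Neurod1 (chr2:79296733, minus strand, 3 exons) showed 17 tags in wt mESCs (6.99 RPM, 4.07 to 11.2) and 10 in menin-null ones (2.84 RPM, 1.36 to 5.23), and in PILECs 136 in wt (7.24 RPM, 6.08 to 8.57) and 98 in menin-null cells (5.54 RPM, 4.50 to 6.75). Neurod1 was marked in 3 libraries and not in menin-null mESCs. There it was at 3.80 times the local input of 0.748 RPM, and its lower bound fell just short of the rule. The start of Cerkl, on the same strand, lies 209 bases upstream of it, and 16, 11, 132 and 97 tags fell within 1 kb of that start too, so the tags of the 2 genes cannot be told apart. Nkx2-2, counted at the noncoding start, was marked in all 4 libraries with 19, 36, 82 and 111 tags, or 7.81, 10.2, 4.37 and 6.28 RPM. Pax4 (chr6:28399353, minus strand, 11 exons) was marked nowhere. It had 2 tags in wt mESCs and 0 in menin-null mESCs, where the exact interval reaches 1.05 RPM and 3 tags, the limit that a count of 0 allows, would be 0.853 RPM, and in PILECs it had 17 in wt and 9 in menin-null cells, where 0.906 and 0.509 RPM compare with a local input of 0.900 and 0.867 RPM.

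Mafa, Isl1 and Mnx1 were marked in every library and led the members in mESCs. Mafa (chr15:75578352, minus strand) had 50 tags in wt mESCs (20.6 RPM, 15.3 to 27.1) and 122 in menin-null ones (34.7 RPM, 28.8 to 41.4), and in PILECs it had 150 in wt (7.99 RPM, 6.76 to 9.38) and 101 in menin-null cells (5.71 RPM, 4.65 to 6.94). Menin-null was the higher genotype in mESCs and the lower one in PILECs, with no overlap of the intervals in mESCs. Isl1 (chr13:117099896, minus strand, 6 exons) had 45, 88, 154 and 178 tags, or 18.5, 25.02, 8.20 and 10.1 RPM, in the same order of libraries. Mnx1 (chr5:29805010, minus strand, 3 exons), whose promoter is printed above with 26 CG, had 36 tags in wt mESCs (14.8 RPM, 10.4 to 20.5) and 74 in menin-null ones (21.0 RPM, 16.5 to 26.4), and in PILECs 165 in wt (8.79 RPM, 7.50 to 10.2) and 209 in menin-null cells (11.8 RPM, 10.3 to 13.5). For both Isl1 and Mnx1, menin-null was above wt in each kind of cell and mESCs were above PILECs in each genotype.

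The order of the members in RPM changed between the kinds of cell. In wt mESCs it ran from Mafa through Isl1, Mnx1, Neurog3, Nkx2-2, Pdx1, Neurod1 and Nkx6-1 to Pax4, and of the neighbours in that order only Nkx6-1 and Pax4 differed beyond counting error. In wt PILECs it ran from Mnx1 through Isl1, Mafa, Neurod1, Nkx6-1, Nkx2-2, Neurog3 and Pdx1 to Pax4. There the first 5 did not differ from one neighbour to the next beyond counting error, while Nkx6-1 exceeded Nkx2-2, Nkx2-2 exceeded Neurog3 and Neurog3 exceeded Pdx1. The order in menin-null PILECs was Mnx1, Isl1, Nkx6-1, Nkx2-2, Mafa, Neurod1, Neurog3, Pdx1 and Pax4, and that in menin-null mESCs was Mafa, Isl1, Mnx1, Neurog3, Nkx2-2, Nkx6-1, Pdx1, Neurod1 and Pax4.

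Differentiation was the comparison in which the members differed most. As a log2 ratio of RPM, PILEC over mESC in wt cells was -2.80 for Pdx1 (-3.79 to -1.79), -2.46 for Neurog3 (-3.17 to -1.74), -1.36 for Mafa (-1.83 to -0.87) and -1.17 for Isl1 (-1.66 to -0.66). These 4 of 9 members were lower by at least 2-fold, with 1 tag added to each count and an interval that excluded 0, where 12.9% of all genes tested were. None was higher, where 5.05% of all genes were. Mnx1 at -0.75 (-1.28 to -0.19) and Nkx2-2 at -0.84 (-1.57 to -0.04) also had intervals below 0, which makes 6 members where 24.6% of all genes had one, while Neurod1 at 0.05 (-0.68 to 0.87) and Nkx6-1 at -0.13 (-0.89 to 0.73) did not differ beyond counting error. The ratio of Nkx2-2 is that of the noncoding start. At its coding start the level was 0.822 RPM in wt mESCs on 2 tags and 2.29 RPM in wt PILECs on 43 tags. In menin-null cells the coding start had 3.41 RPM in mESCs and 3.39 RPM in PILECs, and no interval is given for it. The median of the 9 members was -0.90 with 1 tag added, beside -0.14 over the 21127 genes tested. Menin-null cells gave the same 4 genes lower (18.4% of all genes), namely Pdx1 at -1.65, Neurog3 at -1.98, Mafa at -2.60 and Isl1 at -1.31, with a median of -0.84 beside -0.33 over all genes. None was 2-fold higher there either (3.98% of all genes), and the same 6 members as in wt cells had an interval below 0 (39.1% of all genes), Mnx1 at -0.83 and Nkx2-2 at -0.71 being the other two. In a window of 500 bp the intervals of Mnx1 at -0.56 (-1.24 to 0.19) and Nkx2-2 at -0.63 (-1.74 to 0.68) included 0 in wt cells. In menin-null cells that of Nkx2-2 included 0 in that window (-0.43) and with scaling by tags at all starts (-0.35). Neurod1 was the 1 member with an interval above 0 in menin-null cells, at 0.96 (0.02 to 2.07), where 12.2% of all genes had one, and this interval included 0 in 2 of 9 other settings of the counting, scaling and wider input.

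**Figure D2:**
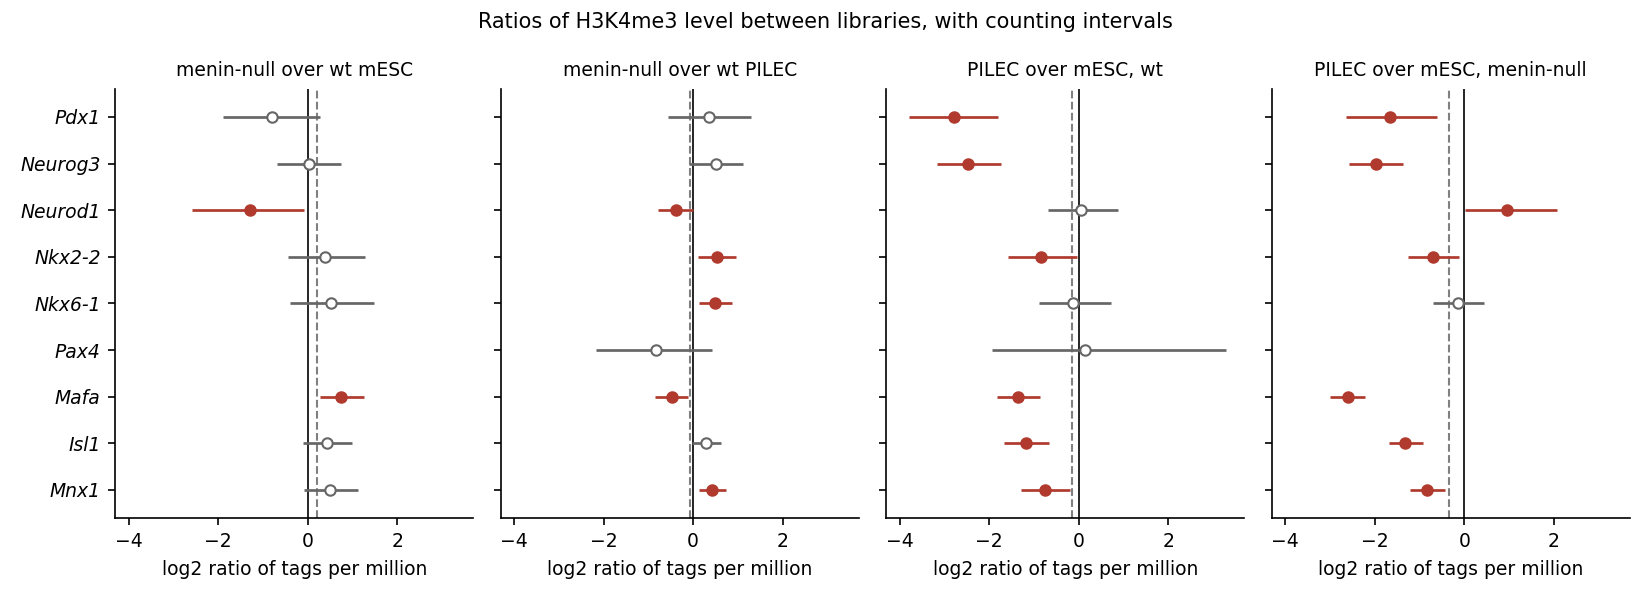
Log2 ratio of H3K4me3 RPM for each member in the 4 comparisons, with exact 95% intervals that cover counting error; filled red points have an interval that excludes 0, open grey points do not, and the dashed line is the median of all genes tested. Pdx1, Neurog3, Mafa and Isl1 lie below 0 in both PILEC over mESC panels, and Mafa lies above 0 in mESCs and below 0 in PILECs between the genotypes; Pax4 is left out where it had under 10 tags.

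The mESC inputs were themselves fuller at gene starts. Tags within 1 kb of a start, summed over genes, came to 5.47% and 4.97% of the library in wt and menin-null mESC inputs. In the wt and menin-null PILEC inputs they came to 3.03% and 3.17%. A tag in the windows of several genes was counted for each of them. When each ratio was divided by the input ratio of the same window, an alternative chosen after seeing the data, the median of all genes in PILEC over mESC was 0.99 in wt and 0.55 in menin-null cells. With the input within 50 kb, where that median was 0.16 in wt cells, the intervals of Mafa at -0.43 (-0.90 to 0.06), Nkx2-2 at -0.44 (-1.17 to 0.36) and Mnx1 at -0.41 (-0.94 to 0.15) came to include 0 in wt cells, and that of Nkx2-2 at -0.26 in menin-null cells. At Mafa that input, scaled to the width of the window at the start, was 1.81 RPM in wt mESCs (385 tags) and 0.951 RPM in wt PILECs (904 tags). On the 1 kb scale Pdx1 at -2.22 (-4.53 to -0.16) was the 1 member still below 0 beyond counting error in wt cells, where 3.38% of all genes were (3.37% with a 2-fold change as well). No member was above 0 beyond counting error there, where 32.1% of all genes were (32.0% by 2-fold). Mafa at 0.80 (-0.35 to 1.94), Mnx1 at 0.83 (-0.41 to 2.02), Nkx2-2 at 1.03 (-0.64 to 2.65) and Nkx6-1 at 1.03 (-0.74 to 2.68) changed sign, while the division took the median of all genes from -0.14 to 0.99. Less the median of all genes on the same scale, Mafa was at -0.19 after division and -1.22 before it, Mnx1 at -0.16 and -0.61, Nkx2-2 at 0.05 and -0.70 and Nkx6-1 at 0.05 and 0.01. Neurog3 at -1.09 (-2.52 to 0.29) and Isl1 at -0.47 (-1.95 to 0.87) had intervals that included 0 but not the median of all genes. Less the median on the same scale, Neurog3 was at -2.08 after division and -2.32 before it, and Isl1 at -1.46 and -1.03. In menin-null cells no interval of a member excluded 0, where 852 of the 21285 genes tested had one below 0 (3.99% of all genes by 2-fold) and 14.9% one above. The input windows of the members held only 3 to 22 tags, and that few tags widens every interval. The part of the input in the ratios was not tested further.

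**Figure D3:**
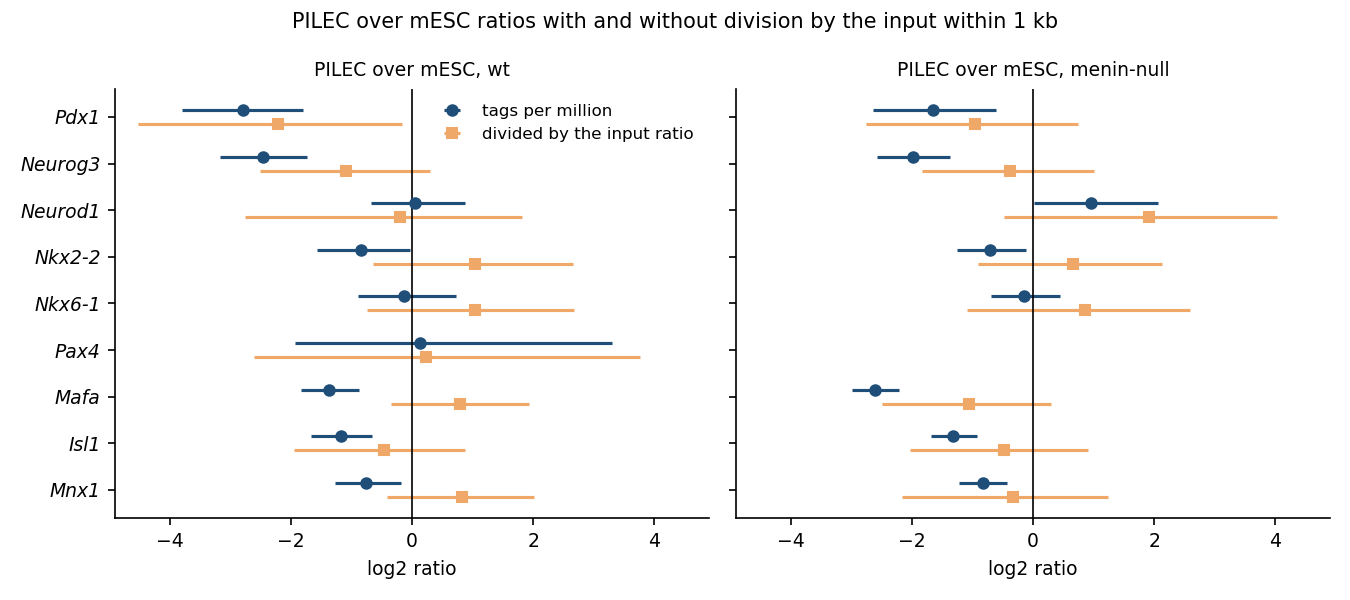
Log2 ratio of PILEC over mESC for each member in wt and menin-null cells, as RPM (blue circles) and after division by the input ratio within 1 kb (orange squares), with exact 95% intervals. Pdx1 stays below 0 in wt cells on both scales, whereas Nkx2-2, Nkx6-1, Mafa and Mnx1 cross to above 0 there once divided, as the median of all genes does (0.99); Pax4 is left out where it had under 10 tags.

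Between the genotypes most of the members lay within 2-fold. In mESCs, 8 members had at least 10 tags in the 2 libraries and their log2 ratios of menin-null over wt ran from -1.30 for Neurod1 to 0.76 for Mafa, while the median of the 9 was 0.36 beside 0.21 over all genes. Neurod1 (-2.59 to -0.09) was the 1 member lower by 2-fold, where 0.820% of all genes tested were, on 10 tags against 17. Its interval came to include 0 in 4 of 9 such settings, where the ratio was -0.77 in a window of 2 kb, -1.07 at the farthest upstream start, and -1.21 both with at most 2 mismatches and with tags at their 5′ end. No member was higher by 2-fold, where 0.783% of all genes were. Mafa (0.27 to 1.26) had the only interval above 0, which 24.3% of all genes had in this comparison, and its ratio was higher than that of 95.6% of the genes tested. In a window of 500 bp the ratio of Mafa was 0.42 (-0.23 to 1.10). With the input within 50 kb Mnx1 was at 0.62 (0.03 to 1.24). That interval leaves out the error of the input, whose own log2 ratio was -0.11 (-0.39 to 0.165), so Mnx1 is not called higher. Pdx1 at -0.80 (-1.89 to 0.28), Neurog3 at 0.02, Nkx2-2 at 0.39, Nkx6-1 at 0.51, Isl1 at 0.44 and Mnx1 at 0.51 (-0.09 to 1.12) did not differ beyond counting error. Divided by the input ratio within 1 kb, Mafa at 1.57 (0.22 to 2.998) and Mnx1 at 1.81 (0.10 to 3.73) were higher, where 6.02% of all genes were, by the interval alone and by 2-fold. None was lower, where 0.707% of all genes were (0.663% by 2-fold), and the interval of Neurod1 at -1.90 (-4.91 to 1.00) included 0.

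In PILECs no member differed by 2-fold between the genotypes, where 1.31% of all genes were lower and 1.28% higher. The intervals were narrower, and 3 members were higher in menin-null PILECs beyond counting error, namely Nkx2-2 at 0.52 (0.10 to 0.95), Nkx6-1 at 0.50 (0.13 to 0.86) and Mnx1 at 0.43 (0.13 to 0.73), where 5.08% of all genes were. In fold, the level of Mnx1 was 1.35 times that of wt PILECs (1.09 to 1.66). Mafa at -0.48 (-0.86 to -0.11) and Neurod1 at -0.39, with an upper bound of -0.001, were lower, where 20.1% of all genes were. The interval of Neurod1 included 0 in 7 of 9 such settings and that of Mafa in 2, a window of 500 bp and the input within 50 kb (-0.37, -0.75 to 0.01). Pdx1 at 0.35, Neurog3 at 0.50, Isl1 at 0.30 and Pax4 at -0.83 had intervals that included 0. In a window of 500 bp the interval of Nkx6-1 at 0.41 (-0.10 to 0.93) included 0 as well. With the local input subtracted, Pdx1 was at 1.05 and Neurog3 at 0.78. The intervals in that setting leave out the error of the subtraction, so neither gene is called higher. Isl1 came to lie above 0 with at most 2 mismatches (0.34, 0.02 to 0.67) and with scaling by tags at all starts (0.39, 0.07 to 0.71). The median of the 9 members was 0.34 beside -0.06 over the 23884 genes tested. Divided by the input ratio within 1 kb, every one of these intervals included 0, where 4.14% of all genes had one below 0 (3.69% by 2-fold) and 1.64% one above (1.55% by 2-fold), with Nkx2-2 at 0.01, Mnx1 at 0.66, Mafa at -0.29 and Neurod1 at 0.22.

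The genotype ratio differed between PILECs and mESCs beyond counting error for Mafa, 1 of the 8 members that could be compared. Its log2 ratio between menin-null and wt cells was 0.76 in mESCs and -0.48 in PILECs, a difference of -1.24 (-1.87 to -0.61). Over all genes the median of this difference was -0.33, and 31.4% of them had an interval below 0, so a difference in this direction was common. None of the members had an interval above 0, where 1.47% of all genes had one. For Mnx1 the difference was -0.08 (-0.77 to 0.59), for Isl1 -0.14 (-0.78 to 0.49), for Nkx6-1 -0.02 (-1.05 to 0.97) and for Nkx2-2 0.13 (-0.86 to 1.09). Those of Pdx1 at 1.14 (-0.30 to 2.59) and Neurod1 at 0.91 (-0.37 to 2.26) were larger but rest on 10 to 18 tags in each mESC library. In a window of 500 bp the difference of Mafa was -0.70 (-1.53 to 0.13). Downstream of its start the first kilobase held 29 tags in wt (11.9 RPM) and 92 in menin-null mESCs (26.1 RPM), and 68 in wt (3.62 RPM) and 36 in menin-null PILECs (2.03 RPM). The kilobase upstream held 21, 30, 82 and 65 tags, and in mESCs its levels of 8.63 and 8.53 RPM were nearly equal.

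The members differed in the side of the start that held the mark. At Mnx1 the first kilobase downstream held 27 tags in wt and 50 in menin-null mESCs, and 115 in wt and 141 in menin-null PILECs, while the kilobase upstream held 9, 24, 50 and 68 in the same order. Isl1 was the reverse, with 31, 64, 90 and 100 tags upstream and 14, 24, 64 and 78 downstream, and its fullest 200 bases lay 200 to 400 bases before the start in all but menin-null PILECs. Nkx2-2, at the noncoding start, had 14, 30, 54 and 53 tags upstream and 5, 6, 28 and 58 downstream, so upstream held more in all but menin-null PILECs. There the sides held 29.0% (22.5% to 36.1%) and 31.7% (25.03% to 38.97%) of the tags within 5 kb and did not differ beyond counting error. Nkx6-1 had 1, 7, 33 and 37 tags upstream and 15, 26, 80 and 113 downstream, and Neurog3 7, 12, 13 and 11 upstream and 23, 32, 29 and 45 downstream. The intervals of the shares on either side overlapped as well for Isl1 in both PILEC libraries, Nkx2-2 in wt mESCs and Neurog3 in wt PILECs. For Isl1 in menin-null PILECs they were 36.8% to 49.95% upstream and 27.7% to 40.3% downstream.

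The mark also extended past the 1 kb window at some members. At Nkx6-1 the stretch 1 to 5 kb downstream held 8 tags in wt and 16 in menin-null mESCs, but 175 in wt and 214 in menin-null PILECs. It was thus higher in PILECs by a log2 ratio of 1.50 (0.49 to 2.74) in wt and 1.41 (0.68 to 2.24) in menin-null cells, where 9.49% and 9.81% of all genes were higher by 2-fold. Its share of the tags within 5 kb was 26.7% (exact binomial interval 12.3% to 45.9%) in wt mESCs and 53.7% (48.1% to 59.2%) in wt PILECs. Within 10 kb of the start, the fullest 200 bases were 1800 to 2000 bases past it in wt PILECs, in an intron, and 1600 to 1800 in menin-null PILECs. In wt mESCs they lay 5600 to 5800 bases past the start, outside the 5 kb used for the share, on 8 tags (3.29 RPM). In menin-null mESCs they lay 400 to 600 bases past the start, on 7 tags (1.99 RPM). At Neurod1 the fullest 200 bases of both PILEC libraries lay 2400 to 2600 bases past the start in coding sequence, with 36 tags in wt (1.92 RPM) and 24 in menin-null PILECs (1.36 RPM). The mESC libraries had tags there as well, 2 in wt (0.822 RPM) and 5 in menin-null cells (1.42 RPM), but single bins were not tested for the mark. From 1 to 5 kb downstream of Neurod1, PILEC over mESC was 0.70 (-0.09 to 1.60) in wt and 0.63 (-0.11 to 1.45) in menin-null cells, and both intervals include 0. The start of the antisense gene Gm17325 lies 2591 bases past that of Neurod1, and the tags carry no strand of transcription. Upstream of Neurod1, from 5 to 1 kb, there were 6 tags in wt and 31 in menin-null mESCs, and 23 in either PILEC library. Menin-null exceeded wt there in mESCs by 1.84 (0.56 to 3.39), opposite to the ratio at the start, where 2.06% of all genes were higher by 2-fold. At Neurog3 the stretch 1 to 5 kb downstream held 32 tags in menin-null and 16 in wt PILECs, the 1 such stretch that was 2-fold higher (1.65% of all genes), which is a level of 0.452 and 0.213 RPM per kb beside an input of 0.386 and 0.421. The other flanks that passed 2-fold were lower in PILECs than in mESCs. From 5 to 1 kb upstream these were Neurog3 and Mafa in wt cells (7.53% of all genes) and Neurog3, Neurod1, Pax4 and Mafa in menin-null cells (7.50%). From 1 to 5 kb downstream they were Nkx2-2 and Mafa in wt cells (9.10%) and Mafa, Isl1 and Mnx1 in menin-null cells (10.6%). In mESCs some of these flanks lay near the input and others above it. Downstream of Nkx2-2, wt mESCs held 1.23 RPM per kb (input 1.06) and wt PILECs 0.40 (input 0.447). Upstream of Neurog3, menin-null mESCs held 1.635 RPM per kb (input 1.60) and menin-null PILECs 0.226 (input 0.483). Upstream of Neurod1, menin-null mESCs held 2.20 RPM per kb (input 0.267). The part of the input in these ratios was not tested.

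**Figure D4:**
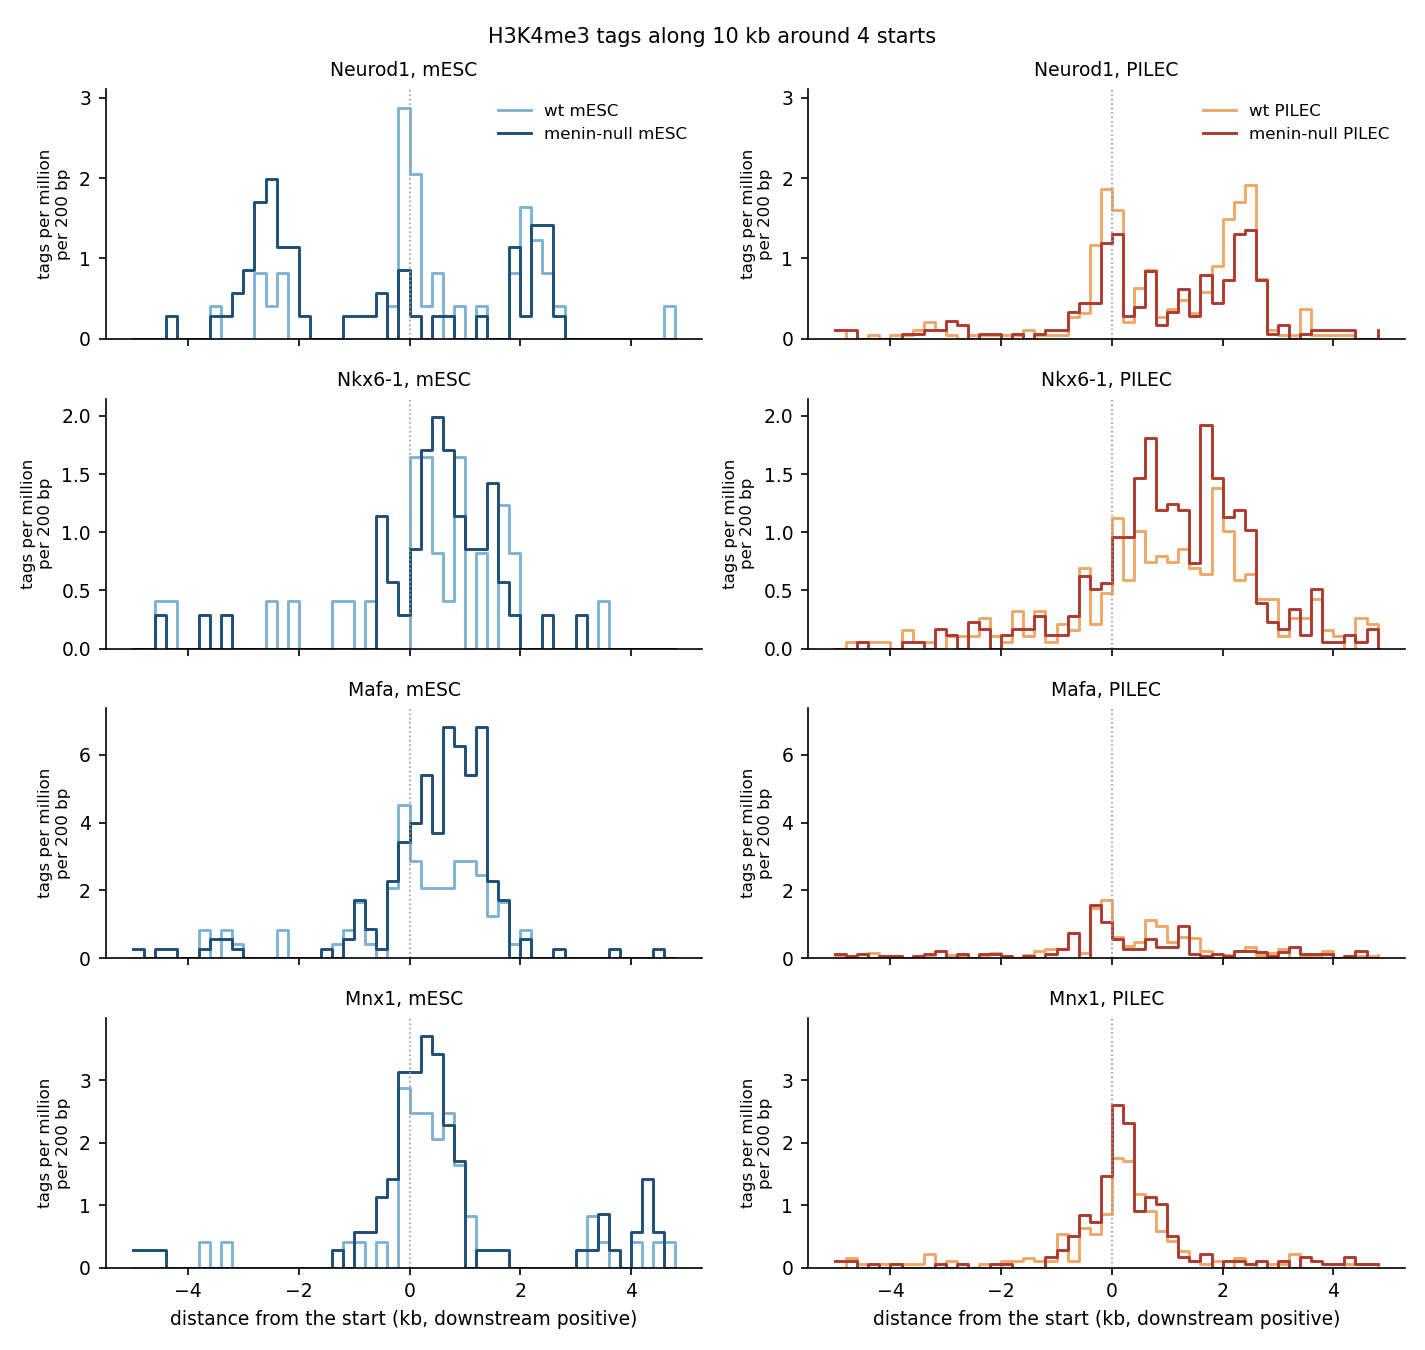
H3K4me3 RPM in bins of 200 bp within 5 kb of the start of Neurod1, Nkx6-1, Mafa and Mnx1, with mESC libraries on the left and PILEC libraries on the right, on 1 vertical scale for each gene. Neurod1 is fullest 2400 to 2600 bases downstream in both PILEC libraries and has tags there in both mESC libraries too, the tags of Nkx6-1 reach past 2000 bases, and Mafa is fullest downstream of the start in menin-null mESCs.

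Most members lay below other genes of like CG count. The count in the 2 kb around the start was 199 at Mafa, 151 at Nkx6-1, 147 at Mnx1, 133 at Nkx2-2, 116 at Isl1, 89 at Neurog3, 70 at Pdx1, 64 at Neurod1 and 11 at Pax4, beside a median of 59 over all genes. Over the 26048 genes the CG count and the level had a Spearman correlation of 0.86, 0.87, 0.82 and 0.81 in the 4 libraries, a description across genes that share a library and differ in base composition. The decile of all genes with the most CG, which holds Mafa, Nkx6-1 and Mnx1, had a median of 49.3 RPM in wt and 61.7 in menin-null mESCs, and 40.6 in wt and 35.5 in menin-null PILECs. Mafa at 20.6, Mnx1 at 14.8 and Nkx6-1 at 6.58 RPM were all below the first of these. In all, 8 of the 9 members were below the median of their own decile in all 4 libraries, where 25.6% of all genes were, and 32.3% to 38.0% of the genes in the deciles of these 8. Pax4 was below it in 1 library. The most CG-rich member in PILECs, Mafa, did not have the highest level there, and Isl1, whose 300 bases printed above held the most CG of the 4 shown, had 8.20 RPM in wt PILECs where its decile had a median of 37.3 RPM.

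**Figure D5:**
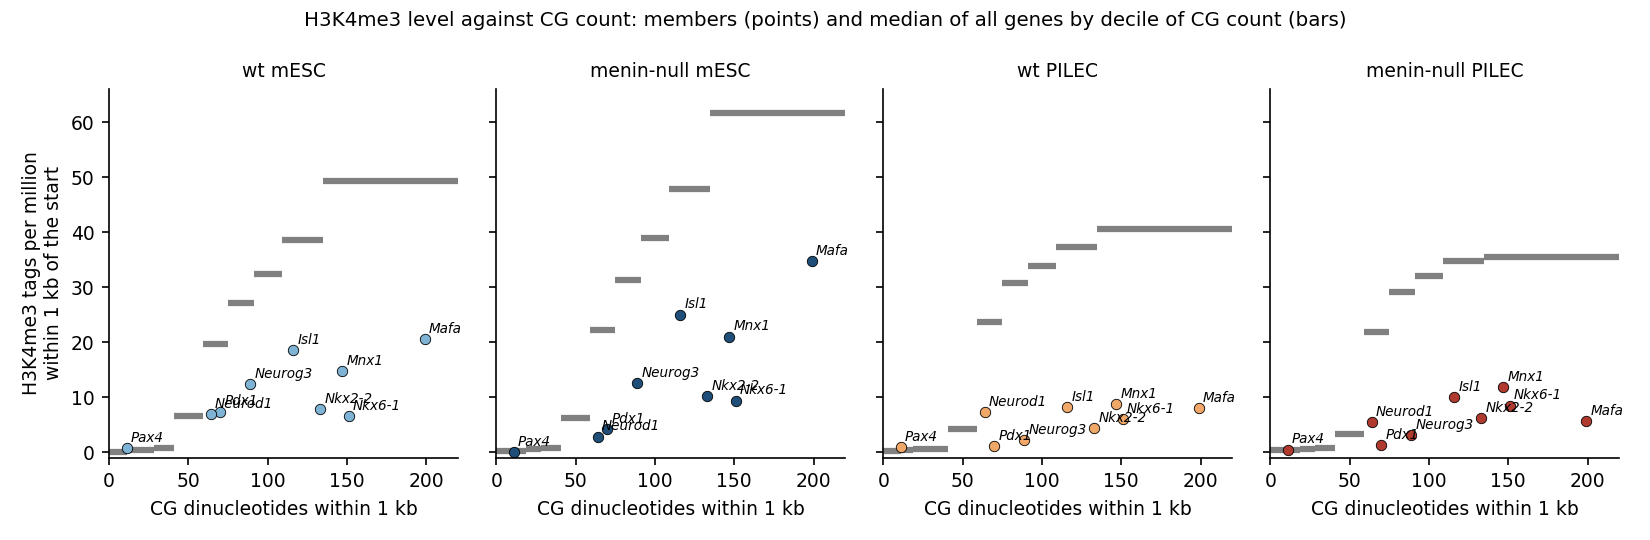
H3K4me3 level in RPM against the number of CG dinucleotides within 1 kb of the start, in the 4 libraries; points are the members and grey bars the median level of all genes in each decile of CG count (the last bar is cut at the edge of the panel, although genes reach 323). All members but Pax4 lie below the bar of their decile in each panel.

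The list of 26 other transcription factors of pancreas progenitors and islet cells was read beside the members. Of these, 22 were marked in wt mESCs and 21 in each of the other libraries, with a median of 11.3, 10.5, 9.06 and 9.30 RPM. In menin-null over wt PILECs their median log2 ratio was -0.03, with 1 lower and 2 higher by 2-fold, where 1.31% and 1.28% of all genes were. The lowest were Hnf4a at -1.42 (-3.05 to -0.01) on 6 against 17 tags, St18 at -0.77 and Pou3f4 at -0.67 (-0.91 to -0.43) on 231 against 390 tags. Hnf4a was unmarked in both. Among the higher were Gata4 at 1.06 (0.65 to 1.47) on 151 against 77 tags and Foxa2 at 0.81 (0.43 to 1.19) on 155 against 94. In mESCs none of the 22 with enough tags differed by 2-fold between the genotypes, where 3 had an interval above 0 (24.3% of all genes). In PILEC over mESC, 9 of the 26 were lower and 7 higher in wt cells, with a median of 0.08, where 12.9% and 5.05% of all genes were. In menin-null cells 6 of 25 were lower and 5 higher, where 18.4% and 3.98% of all genes were.

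Mnx1, whose 4 levels ran from 8.79 to 21.0 RPM, was also the highest member in wt PILECs by RPM. The genes with the nearest pattern, by Euclidean distance in log2(RPM + 0.1) over the 4 H3K4me3 libraries among 14642 genes with at least 10 tags in each, were Gm16936 at a distance of 0.209, Acan at 0.227 and Bcl6b at 0.232. Acan had 16.0, 21.9, 8.52 and 10.4 RPM in the same order of libraries.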

How the data were processed

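For each of 4 kinds of cell, the labels give 1 H3K4me3 and 1 input library, which were used as deposited. Reads of 36 bp were aligned to mm9 by the authors (the aligner is not given in the sources used here), who kept unique locations with at most 2 mismatches. The deposited files hold 1 line per tag with its position, so a count is a number of tags, not normalized by the authors; a score in the deposited files, not named in the methods, was left unused. Tags were shifted 125 bp to the middle of a 250-bp fragment and counted in scripts (Python 3.11.15, scipy 1.17.1, numpy 2.4.6, pandas 2.3.3) within 1 kb of starts from the GENCODE annotation of mm9 (26048 protein-coding, lincRNA and processed-transcript genes with 75530 starts), taking for each gene the start with the highest summed RPM over the H3K4me3 libraries. RPM is tags per 1000000 tags of the library. Ratios have exact conditional (Clopper-Pearson) intervals, and the difference between genotype ratios the exact interval of an odds ratio, checked on simulated data. With the input within 50 kb divided out or subtracted, the interval of a ratio was only moved with the ratio. Calls needed 10 tags in the 2 libraries. Plots were made with matplotlib 3.10.9. Tags with over 2 mismatches were present (1.04% to 1.81%) and kept. Members, gene lists and rules were chosen with earlier results of these data known. Named were all 9 members, the 3 lowest and 3 highest of the other pancreas factors in menin-null over wt PILECs, genes with a start within 1 kb of a member's and the 3 genes nearest to Mnx1. Gm17325, 2210019I11Rik, 2010107G23Rik and the marker genes named with values were chosen after their values were seen. The counts and medians of the other pancreas factors cover all listed genes, and 1 of the 3 highest is not reported here.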

Additional observations from a re-analysis of the deposited data

Results flagged for a closer look

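The genotype ratio differed between the kinds of cell at 3 places, judged by the exact interval of the difference, which covers counting error only. Within 1 kb of the start of Mafa, the log2 genotype ratio, menin-null over wt, in PILECs minus that in mESCs was -1.24. From 1 to 5 kb downstream of Mafa the difference was -0.99 (-1.91 to -0.09), on 23 tags in wt and 62 in menin-null mESCs, and 69 in wt and 61 in menin-null PILECs. From 5 to 1 kb upstream of Neurod1 it was -1.75 (-3.53 to -0.11), on 6, 31, 23 and 23 tags. Of the genes that could be compared, 31.4% had an interval below 0 for the difference within 1 kb of the start, 8.53% had one from 5 to 1 kb upstream and 7.99% from 1 to 5 kb downstream.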

How the results depend on the processing

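No paired analysis was possible because each condition had 1 library. Counts that moved by over 1.5 times were few. The 1 member 2-fold lower in menin-null mESCs became 0 with at most 2 mismatches, with tags at their 5′ end, in a window of 2 kb and at the 5′ end of the gene. Pdx1 became the 1 member 2-fold higher in menin-null over wt PILECs with the local input subtracted, by an interval without the error of the subtraction. Neurod1 became the 1 member 2-fold higher in PILEC over mESC, menin-null, with the local input subtracted and with scaling by tags at all starts. The share of all genes past 2-fold was not counted in these settings. The members whose genotype ratio differed between PILECs and mESCs went from 1 to 0 in a window of 500 bp and to 2 (Pdx1 and Mafa) with scaling by tags at all starts. The share of all genes that differed was not counted in the 500 bp window or with that scaling. That scaling moved the median of all genes from 0.21 to -0.03 in menin-null over wt mESCs and from -0.33 to 0.03 in PILEC over mESC, menin-null. Division by the input ratio within 1 kb, chosen after seeing the data, left 0 members lower and 2 higher (Mafa and Mnx1; 6.02% of all genes) in menin-null mESCs, 1 lower in PILEC over mESC in wt cells and 0 in menin-null cells, where the median of the members was -0.34. The median of all genes moved with it, to 0.99 in PILEC over mESC, wt, and 0.55 in menin-null cells. Of the ratios whose interval excluded 0, it turned the direction of Neurod1 in menin-null over wt PILECs (0.22), of Nkx2-2 (1.03), Mafa (0.80) and Mnx1 (0.83) in PILEC over mESC, wt, and of Nkx2-2 in menin-null cells (0.66). Ratios whose interval included 0 changed sign too, namely Nkx6-1 (1.03 and 0.87) and Neurod1 (-0.20, wt) in PILEC over mESC, Pdx1 in menin-null over wt PILECs (-0.53) and Neurog3 in mESCs (-0.02). The cause was not tested. A count was taken as the same within 1.5 times, so 3 members against 4 passed as the same. A median was taken as the same within the median bounds of the members' intervals. Of the medians and counts under an alternative, 162 stayed the same by these rules and 14 moved. Of the ratios of single members, 370 stayed within their interval, 19 moved and the 5 named first turned. The mESC libraries, with 0 to 122 tags at a member, limit every comparison that uses them.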
